A study of Homo sapiens with 10 samples.

Results

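Small nucleolar RNAs and their Cajal body relatives were read in UT-SCC-12a cells, an established line from a human squamous carcinoma of the skin, with and without stable overexpression of the microRNA miR-23b-3p. The members are the gene-level array probe sets whose gene symbol begins with SNORD, SNORA or SCARNA followed by a digit. They number 300 of 48144 tested, under 286 symbols, with 205 C/D box, 74 H/ACA box and 21 Cajal body probe sets. Both groups hold 5 total RNA samples, each on its own Affymetrix human gene array. The overexpressing cells carry a lentiviral microRNA mimic construct for miR-23b-3p, and the control cells carry the same kind of construct with a scrambled RNA. All 10 samples thus come from transduced cells of a single line, and no parental cells are among them. Nothing in the labels says that replicates came from separate transductions, so p-values measure the spread between these samples, which may be technical.

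Box C/D RNAs guide 2′-O-methylation and box H/ACA RNAs guide pseudouridylation, mostly of ribosomal RNA, and a few of either kind act in the cleavage of the ribosomal RNA precursor. Small Cajal body RNAs carry the same boxes and guide the modification of spliceosomal small nuclear RNAs. In human cells most of these RNAs are cut from introns of a host gene, and they are kept stable by a core of bound proteins.

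The microRNA that was overexpressed is shown first, with its seed (bases 2 to 8) in capitals, because the groups are defined by it. It is followed by 3 RefSeq microRNA hairpins that overlap a member gene and hold its 3′ end. They are shown because they carry the ACA box from which the H/ACA class takes its name. Capitals mark the ACA that lies 3 bases before the 3′ end of the member gene. The hairpin MIR1843 shares 83 bases with SCARNA3, MIR664A shares 74 bases with SNORA36B, and MIR3651 shares 87 bases with SNORA84. Positions are RefSeq, build GRCh38.p14. The microRNA lies on the plus strand at chr9:95085265-95085287. The hairpins lie on the minus strand at chr1:175968370-175968479, chr1:220200538-220200619 and chr9:92292458-92292547.
hsa-miR-23b-3p: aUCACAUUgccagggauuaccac
MIR1843, in SCARNA3: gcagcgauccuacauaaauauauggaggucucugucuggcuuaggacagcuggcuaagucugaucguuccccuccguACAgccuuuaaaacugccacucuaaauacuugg
MIR664A, in SNORA36B: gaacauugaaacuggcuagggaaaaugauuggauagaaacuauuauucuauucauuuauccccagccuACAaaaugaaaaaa
MIR3651, in SNORA84: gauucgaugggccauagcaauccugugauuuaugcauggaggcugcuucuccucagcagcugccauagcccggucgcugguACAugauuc
Of 1562 RefSeq hairpins, 63.0% hold the letters ACA somewhere, and 1.79% hold them starting 6 bases from their own end. The marked ACA is placed by the end of the member gene and not of the hairpin, so the 1.79% is not its background. None of the 3 members passed the test. SCARNA3 differed by -0.08 on the log2 scale (limma, SE 0.12, adjusted p = 0.939), SNORA84 by -0.09 (SE 0.095, adjusted p = 0.904) and SNORA36B by 0.13 (SE 0.18, adjusted p = 0.924).

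Values are log2 signals as deposited, and every difference is overexpressing minus control unless it is called a fold. Array medians over the tested probe sets lay between 3.14 and 3.19, and arrays of a group correlated at 0.991 to 0.994 over them. The squamous markers KRT5, TP63, SFN, DSG3, PKP1 and DSP read 7.29 to 10.6, whereas KRT14 and KRT6A read 3.70 and 3.72, and none of 6 fibroblast, 6 blood and endothelial or 4 melanocyte markers exceeded 4.46. The probe set on the native MIR23B hairpin read 6.21 ± 0.22 (SD, n = 5) in control cells and 6.43 ± 0.20 (SD, n = 5) in overexpressing cells, with overlapping groups (limma, adjusted p = 0.799). No label or header says whether this probe set also reads RNA of the lentiviral construct. The antigenomic background probes, which match no human sequence, had medians of 2.29 to 2.44 per array. Poly-A spikes, bacterial RNAs added to the sample to follow labelling, read 5.46 ± 0.020 (SD, n = 5) in the control arrays and 5.35 ± 0.093 (SD, n = 5) in the overexpressing arrays (exact permutation test, two-sided, p = 0.0238).

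Most members read slightly lower with miR-23b-3p, and none passed the threshold on its own. Of the 300 probe sets 217 were lower and 83 higher, with a median difference of -0.073, beside a median of 0.002 and 48.4% lower over all tested probe sets. In bulk RNA, fewer cells that hold an RNA and less of it per cell cannot be told apart. At an adjusted p under 0.05 limma called 0 members, and 0.0187% of all tested probe sets. At an unadjusted p under 0.05 it called 36 members lower, where 2.95% of all probe sets were called lower, and 3 members higher, where 3.67% were called higher. The 36 are 12% of the members. The groups did not overlap in 10 members, all lower in overexpressing cells. Over all tested probe sets the corresponding shares were 0.661% lower and 0.685% higher.

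The count of 36 depended on single arrays. It was 55, or 18.3% of members, without overexpressing replicate 3, where 2.86% of all tested probe sets were called lower. Without overexpressing replicate 1 it was 27, or 9% of members, where 2.99% of all tested probe sets were. When the mean signal of the poly-A spikes entered the fit as a covariate, it was 13, or 4.33% of members. In that fit 2.80% of all tested probe sets were called lower. With the covariate 55.0% of members were lower, beside 48.2% of all tested probe sets. The median of the members was -0.017 in that fit, against -0.073 without the covariate. SEs of most members were also wider there, so fewer calls do not by themselves mean smaller differences.

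C/D and H/ACA box RNAs shared the downward direction. Among C/D probe sets 143 of 205 were lower, with a median of -0.060, 27 called lower and 3 called higher at an unadjusted p under 0.05. Among H/ACA probe sets 57 of 74 were lower, with a median of -0.091, 8 called lower and 0 higher. Cajal body RNAs had 17 of 21 lower, a median of -0.088 and 1 called lower. The shares called lower were 13.2%, 10.8% and 4.76% in this order, beside 2.95% of all tested probe sets. The H/ACA count was 18 without overexpressing replicate 3. With the spike covariate 9 C/D probe sets (4.39%) were called lower and 6 higher, and 113 of 205 were lower. Of the H/ACA probe sets 3 (4.05%) were called lower and 43 of 74 were lower. In that fit 2.80% of all tested probe sets were called lower. The medians of the classes were then -0.015, -0.031 and 0.018 in the same order, so the Cajal body median changed sign, with 9 of 21 lower. The difference between the classes was not tested.

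The gap between the C/D and H/ACA medians was smaller among brighter probe sets. A mean signal above 5 was reached by 79 C/D, 47 H/ACA and 13 Cajal body probe sets, while 80 C/D, 3 H/ACA and 0 Cajal body probe sets had a mean below 2.44, the highest background median. Above 5 the C/D median was -0.096, with 63 of 79 lower, and the H/ACA median was -0.11, with 43 of 47 lower. All tested probe sets above 5 had a median of 0.004. The 4 that were not lower, SNORA33, SNORA49, SNORA54 and SNORA55, differed by 0.01, 0.01, 0.05 and 0.002. Cajal body RNAs above 5 had a median of -0.048, with 9 of 13 lower.

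**Figure D1:**
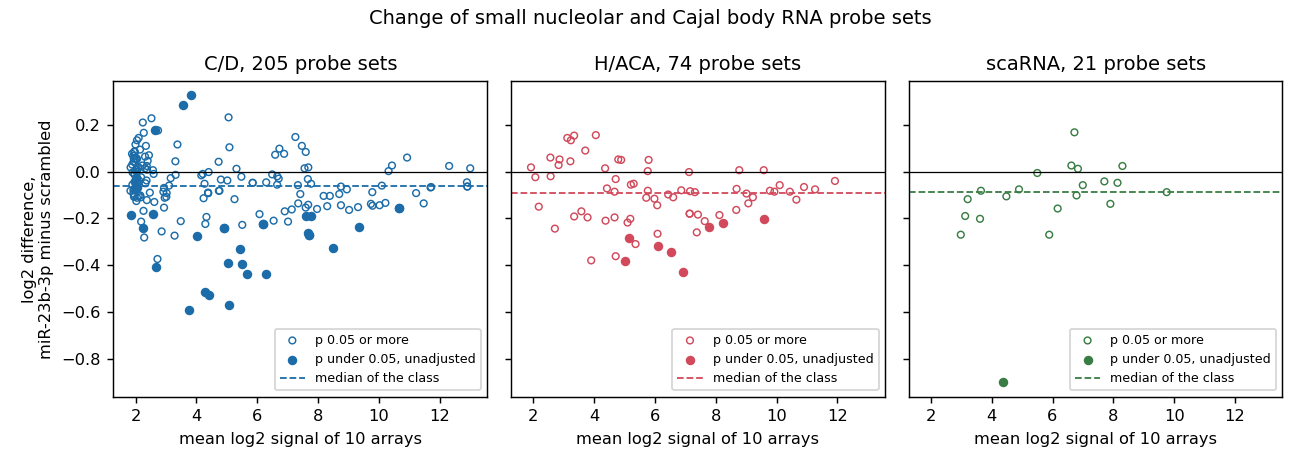
Each point is a probe set, placed by its mean log2 signal over 10 arrays and its log2 difference, miR-23b-3p minus scrambled, for 205 C/D box, 74 H/ACA box and 21 Cajal body (scaRNA) probe sets. Filled points have an unadjusted limma p under 0.05, the dashed line is the class median (-0.060, -0.091 and -0.088), and most points above a signal of 5 lie below 0.

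The shift was uneven over arrays. For each array the median deviation of the members from their own mean over all 10 arrays was taken. In C/D RNAs it was 0.010, 0.007, 0.048, 0.027 and 0.017 in control replicates 1 to 5, and -0.042, -0.045, -0.038, -0.070 and 0.008 in overexpressing replicates 1 to 5. Overexpressing replicate 5 thus fell in the control range, and the other 4 lay below it. Among C/D probe sets above 5, replicates 3 and 5 gave 0.060 and 0.028, both within the control range of -0.002 to 0.092.

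In H/ACA RNAs the control arrays gave 0.013, 0.087, 0.050, 0.078 and 0.060, and the overexpressing arrays gave -0.054, -0.13, 0.082, -0.18 and 0.015. Here replicates 3 and 5 lay in the control range. Over all probe sets the classes parted in replicate 3, since its C/D median was below every control array and its H/ACA median was above 4 of them. Among probe sets above 5 they did not, with medians of 0.060 for C/D and 0.066 for H/ACA in that array. The Cajal body medians spread from -0.041 to 0.16 in control arrays and from -0.21 to 0.069 in overexpressing arrays, and the groups overlapped.

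The poly-A spikes of the overexpressing arrays read 5.34, 5.37, 5.36, 5.20 and 5.46 in replicates 1 to 5, and those of the control arrays read 5.44 to 5.48. Replicate 4, with the lowest spikes, also had the lowest median of the 5 in each class, and replicate 5, with spikes in the control range, had medians in the control range in each class. Replicate 3 differed from this. Its spikes were below every control array, but its H/ACA and Cajal body medians were the highest of the 5 and in the control range. Its C/D median lay below that range. The part of labelling in the shift was not tested. Because the spikes themselves differed between the groups, the covariate fit cannot tell labelling and overexpression apart. The hybridization spikes did not separate the groups (exact permutation test, two-sided, p = 0.389).

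**Figure D2:**
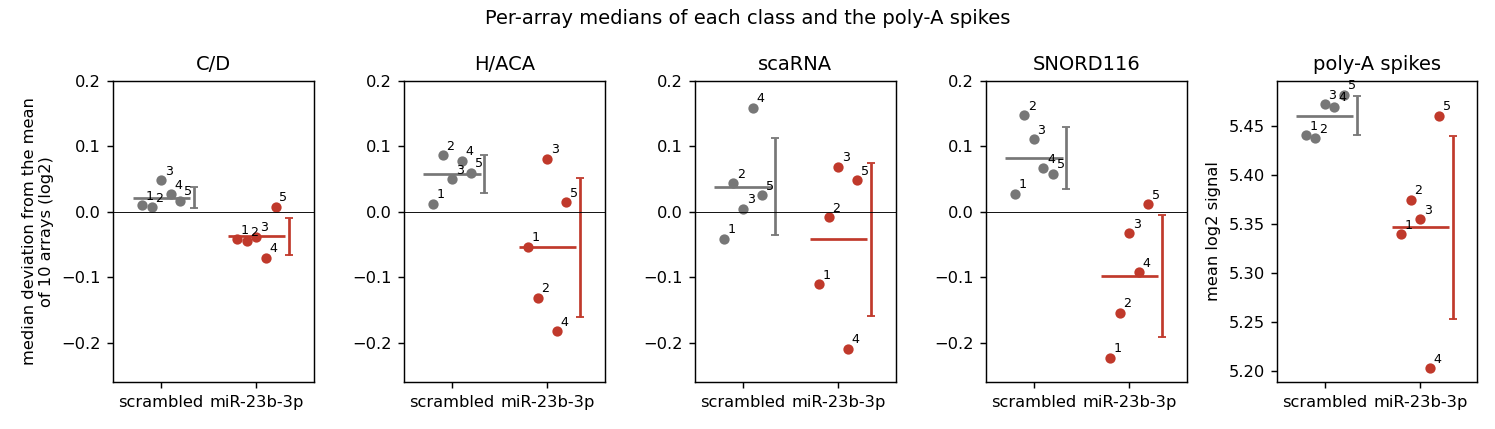
The first 4 panels plot, for each array, the median over a class (C/D, H/ACA, scaRNA) or over the SNORD116 family of the deviation from the mean of 10 arrays (log2). The last panel plots the mean log2 signal of the poly-A spikes. Numbers are replicates, lines are means, bars are SD over 5 arrays, and overexpressing replicate 4 has the lowest spikes at 5.20.

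The RNAs that act in cleavage or acetylation of the ribosomal RNA precursor showed no call. Of 13 genes listed for this role, 4 were measured under their symbol. SNORD3A, the U3 RNA needed for the first cuts on the way to 18S ribosomal RNA (chr17:19091329-19091545, hg19, plus strand), read 12.91 ± 0.086 in control arrays and 12.87 ± 0.070 in overexpressing arrays (SD, n = 5 each), a difference of -0.05 (SE 0.065). Its arrays read 12.81, 12.85, 12.94, 13.03 and 12.94 against 12.93, 12.80, 12.86, 12.80 and 12.95, and the groups overlapped. The highly similar SNORD3B-1, 2 probe sets with identical values, differed by -0.06 (SE 0.067), and reads of these copies cannot be told apart.

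SNORD13, the U13 RNA that assists acetylation of 18S ribosomal RNA, read 12.99 ± 0.029 and 13.01 ± 0.043 (SD, n = 5 each), a difference of 0.01 (SE 0.054). With SDs of this size it was among the most even members. Its signal and that of SNORD3A lay near 13.29, the highest mean of all tested probe sets, and saturation was not tested. The U14 copies SNORD14A and SNORD14E, which act in 18S maturation and lie in introns of RPS13 and HSPA8, differed by -0.14 (SE 0.11) and -0.23 (SE 0.13). Their limma adjusted p-values were 0.859 and 0.810. Under the covariate SNORD3A differed by 0.02, SNORD13 by 0.02, SNORD14A by -0.02 and SNORD14E by 0.06, so SNORD3A and SNORD14E changed sign.

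SCARNA20, an H/ACA-type Cajal body RNA in the USP32 gene (chr17:58308877-58309007, hg19, minus strand), had the largest difference of all members. It read 5.20, 4.58, 4.48, 4.83 and 5.05 in control replicates 1 to 5 and 4.21, 4.25, 3.55, 3.72 and 3.90 in overexpressing replicates 1 to 5. Every overexpressing array was below every control array. The difference was -0.90 (SE 0.16), a 1.87-fold lower signal. The unadjusted limma p was 0.000118, the adjusted p was 0.203, and the exact two-sided permutation p was 0.0079, the smallest that 5 arrays against 5 can give. USP32 itself differed by 0.05 (SE 0.070). With the spike covariate SCARNA20 differed by -0.81 (SE 0.23).

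No other Cajal body RNA had an unadjusted p under 0.05. SCARNA7, a C/D-type guide within KPNA4, had the next smallest p and differed by -0.14 (SE 0.074, limma adjusted p = 0.799), reading 7.85 to 8.11 in control arrays and 7.70 to 7.97 in overexpressing arrays. SCARNA10, the U85 RNA with both kinds of box, differed by -0.05 (SE 0.063), and SCARNA22, from the NSD2 gene, by -0.09 (SE 0.076). SCARNA9 differed by 0.02 (SE 0.11), and SCARNA9L and SCARNA5, the members with the smallest p among those higher, by 0.17 (SE 0.11) and 0.03 (SE 0.080). In these 6 RNAs the groups overlapped.

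Among H/ACA guides, SNORA13 and SNORA57 were the members with separate groups. SNORA13, from the noncoding gene EPB41L4A-AS1 (chr5:111497182-111497314, hg19, plus strand), read 7.22, 7.06, 7.14, 7.28 and 7.0 in control arrays and 6.70, 6.63, 6.82, 6.46 and 6.94 in overexpressing arrays. All overexpressing arrays lay below all control arrays. It differed by -0.43 (SE 0.093), a 1.35-fold lower signal, with a limma adjusted p of 0.297 and an exact two-sided permutation p of 0.0079. With the spike covariate the difference was -0.24 (SE 0.11). Its host gene differed by -0.10 (SE 0.092).

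SNORA57, whose interval lies in CSKMT (chr11:62432894-62433042, hg19, plus strand), read 9.68, 9.61, 9.74, 9.74 and 9.63 against 9.47, 9.35, 9.58, 9.42 and 9.57. The change was small, -0.20 (SE 0.066), but the replicates were tight and the groups did not overlap (exact two-sided permutation test, p = 0.0079; limma adjusted p = 0.632). The difference was -0.15 (SE 0.091) with the spike covariate. SNORA66, from an intron of the ribosomal protein gene RPL5, differed by -0.28 (SE 0.086), and its groups touched at 5.19.

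SNORA28, SNORA74A and SNORA50C were the other H/ACA RNAs with the smallest p among those lower. They differed by -0.38 (SE 0.14), -0.32 (SE 0.12) and -0.34 (SE 0.14), and the groups overlapped in each. Their limma adjusted p-values were 0.673, 0.699 and 0.718. With the spike covariate they differed by -0.21 (SE 0.18), -0.09 (SE 0.14) and -0.33 (SE 0.20). SNORA28 lies in EIF5, which differed by -0.08 (SE 0.068), and SNORA74A, the U19 RNA, lies in MATR3, which differed by 0.02 (SE 0.062).

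No H/ACA RNA was called higher. The 6 with the smallest p among those higher, SNORA35, SNORA30, SNORA36B, SNORA16B, SNORA54 and SNORA36C, differed by 0.05 to 0.16, with limma adjusted p-values of 0.843 to 0.964. SNORA35 lies in HTR2C, a serotonin receptor gene known for brain expression, and read 3.35 over all arrays. The brightest H/ACA probe sets were all lower, by differences around the class median of -0.091. SNORA48, SNORA8, SNORA23, SNORA71A and SNORA68 differed by -0.04, -0.08, -0.07, -0.12 and -0.09, and none had an unadjusted p under 0.05. SNORA23 changed sign, to 0.10, with the spike covariate.

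Outside the SNORD113 to SNORD116 families, 71 of 93 C/D probe sets were lower, with a median of -0.068. At an unadjusted p under 0.05, 11 (11.8%) were called lower and 2 (2.15%) higher, beside 2.95% and 3.67% of all tested probe sets. The 93 include 2 SNORD109B probe sets, which lie beside those families on chromosome 15. They hold identical values and were both called lower (difference -0.24). SNORD59B, from an intron of ATP5F1B, which encodes an ATP synthase subunit (chr12:57037464-57037538, hg19, minus strand), read 5.67, 5.89, 5.72, 5.59 and 5.64 in control arrays. It read 5.12, 5.31, 5.54, 5.25 and 5.32 in overexpressing arrays. All 5 were below the lowest control array. The difference was -0.39 (SE 0.085), a 1.31-fold lower signal (limma adjusted p = 0.297, exact two-sided permutation p = 0.0079), and -0.37 (SE 0.12) with the spike covariate. ATP5F1B differed by -0.01 (SE 0.051).

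SNORD83A, within the ribosomal protein gene RPL3 (chr22:39711218-39711312, hg19, minus strand), read 5.35, 5.05, 5.36, 5.22 and 5.85 in control arrays and 4.38, 4.96, 5.19, 4.69 and 4.75 in overexpressing arrays. A single overexpressing array, replicate 3, lay within the control range. The difference was -0.57 (SE 0.16, limma adjusted p = 0.520), a 1.49-fold lower signal, and was -0.45 (SE 0.23) with the covariate.

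SNORD16, a methylation guide for 18S ribosomal RNA in RPL4 (chr15:66795149-66795248, hg19, minus strand), read 8.66, 8.71, 8.70, 8.52 and 8.63 against 8.47, 8.09, 8.39, 8.08 and 8.55. Replicate 5 again reached the control range. The difference was -0.33 (SE 0.098, limma adjusted p = 0.540) and was -0.17 (SE 0.12) with the covariate. The same gene holds 3 further members, and the 4 did not move alike. SNORD18A, SNORD18B and SNORD18C, similar copies that guide methylation of 28S ribosomal RNA, differed by -0.17 (SE 0.14), -0.09 (SE 0.17) and 0.02 (SE 0.079), and RPL4 differed by -0.02 (SE 0.059).

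SNORD37 and SNORD7 were the C/D members with the smallest p among those higher. SNORD37, from the elongation factor gene EEF2 (chr19:3982505-3982570, hg19, minus strand), read 3.54, 3.80, 3.87, 3.72 and 3.40 in control arrays and 3.81, 4.05, 3.95, 3.78 and 4.37 in overexpressing arrays. The groups overlapped by 2 overexpressing arrays. It differed by 0.33 (SE 0.12, limma adjusted p = 0.690) and SNORD7 by 0.28 (SE 0.11, limma adjusted p = 0.705). EEF2 differed by -0.01 (SE 0.058). SNORD13P1, a copy of SNORD13, differed by 0.23 (SE 0.11). The spike covariate enlarged these differences, to 0.55 (SE 0.14) for SNORD37, 0.34 (SE 0.16) for SNORD7 and 0.47 (SE 0.12) for SNORD13P1, with limma adjusted p-values of 0.614, 0.757 and 0.618. The bright methylation guide SNORD105B differed by 0.02 (SE 0.066).

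**Figure D3:**
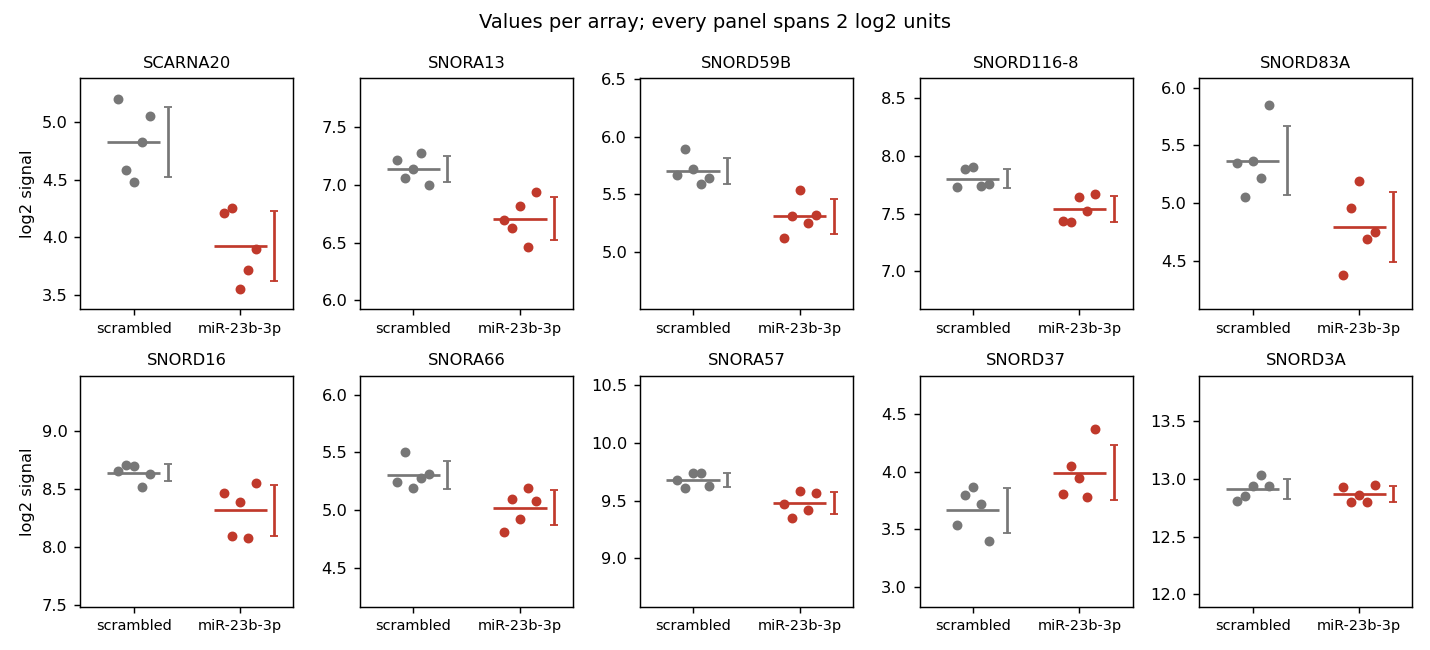
Log2 signal per array of 10 members, with points for 5 scrambled RNA and 5 miR-23b-3p arrays, lines for means and bars for SD. Every panel spans 2 log2 units, and the groups are separate in SCARNA20, SNORA13, SNORD59B, SNORD116-8 and SNORA57.

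SNORD116 was the family in which the largest share of probe sets was lower among the 4 large C/D families. These RNAs are tandem copies in the paternally expressed Prader-Willi region of chromosome 15, known for expression in neurons, and have no established ribosomal RNA target. Of 28 probe sets, 27 were lower, with a median of -0.18. At an unadjusted p under 0.05, 14 (50%) were called lower and 1 (3.57%) higher, beside 2.95% and 3.67% of all tested probe sets. Of the 28, 26 are annotated as cross-hybridizing and 3 pairs hold identical values, so the copies are not independent. Counted once, 25 distinct profiles gave 24 lower and 11 (44%) called lower. With the spike covariate 25 of the 28 were lower, and the median was -0.14. In that fit 1 (3.57%), SNORD116-6, was called lower and 0 higher, beside 2.80% and 3.79% of all tested probe sets. SEs were also wider in that fit, for example 0.10 against 0.074 for SNORD116-3. A lost call is therefore not by itself a lost difference.

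Bright and dim copies were mostly lower, with the larger median difference in the bright ones. The 14 probe sets above 5 were all lower, with differences of -0.44 to -0.14, and so were 13 of the 14 dimmer ones. The medians were -0.20 and -0.086, and 10 and 4 were called lower at an unadjusted p under 0.05. Of the dimmer probe sets called lower, SNORD116-13 and SNORD116-23 read 2.235 and 2.57, close to background. They were also named after their values were seen. The dimmer ones include the largest differences of the family, SNORD116-1 at -0.59 (SE 0.25) and SNORD116-29 at -0.53 (SE 0.23), which were named after their values were seen. SNORD116-8 (chr15:25315578-25315674, hg19, plus strand) read 7.73, 7.89, 7.90, 7.74 and 7.76 in control arrays and 7.44, 7.43, 7.64, 7.52 and 7.67 in overexpressing arrays. The groups did not overlap. It differed by -0.26 (SE 0.071), a 1.20-fold lower signal, with a limma adjusted p of 0.492 and an exact two-sided permutation p of 0.0079. With the covariate it differed by -0.22 (SE 0.10).

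The groups were also separate in both SNORD116-3 probe sets, which differed by -0.27 (SE 0.074), and in SNORD116-2 and SNORD116-6, which differed by -0.19 (SE 0.068) and -0.19 (SE 0.070). The last 2 were named after their values were seen, as was SNORD116-19. SNORD116-19 is measured by a pair of probe sets with identical values, which read 10.67, 10.82, 10.76, 10.77 and 10.73 against 10.55, 10.47, 10.71, 10.58 and 10.66. It differed by -0.16 (SE 0.064), with 1 overexpressing array in the control range. SNORD116-12, the single copy that was higher, differed by 0.18 (SE 0.074) at a signal of 2.63, close to background.

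Per array, the SNORD116 median deviation was 0.028 to 0.15 in control arrays and -0.22, -0.15, -0.033, -0.093 and 0.012 in overexpressing replicates 1 to 5, so the groups did not overlap. Replicate 4, which had the lowest spikes, was not the lowest here. IPW, the annotated transcript whose interval holds these copies, differed by -0.08 (SE 0.077).

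The neighbouring SNORD115 family, known for neuronal expression and for pairing with HTR2C RNA, gave no comparable pattern. All 44 probe sets had a mean signal of 1.83 to 3.31, 42 are annotated as cross-hybridizing, and 23 were lower, with a median of -0.012. SNORD115-10, named after its values were seen, had separate groups at a mean signal of 1.85, below the background median. On chromosome 14, in the imprinted DLK1-DIO3 region, 8 of 9 SNORD113 and 14 of 31 SNORD114 probe sets were lower, with medians of -0.046 and 0.014. No probe set of these 2 families had a mean signal above 2.94. SNORD113-9 differed by -0.41 (SE 0.12, limma adjusted p = 0.521) at 2.68, and SNORD114-7 and SNORD114-27 by 0.21 (SE 0.11) and 0.18 (SE 0.10).

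**Figure D4:**
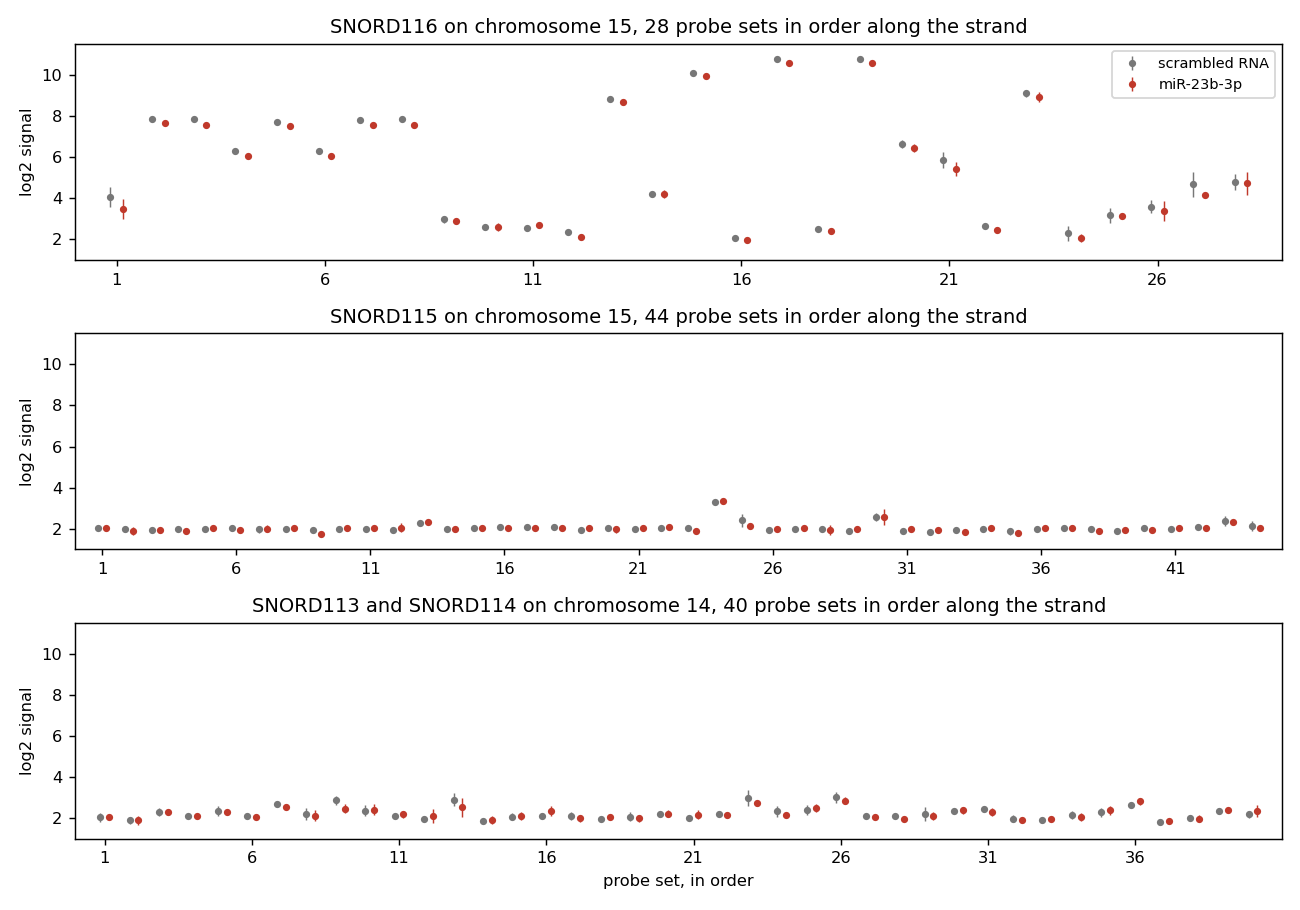
Mean log2 signal with SD over 5 arrays for scrambled RNA (grey) and miR-23b-3p (red), for the probe sets of SNORD116 (28), SNORD115 (44), and SNORD113 with SNORD114 (40), in order along the strand. SNORD116 spans signals from 2.0 to 10.7 with 27 of 28 lower in red, whereas the other families stay at or below 3.31.

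A further cluster lay in SNHG17, a noncoding host gene on chromosome 20, where SNORA71A to SNORA71D, H/ACA guides of 18S ribosomal RNA, span 37053843 to 37062642 on the minus strand of hg19. All 4 were lower, with differences of -0.26 to -0.11, and none had an unadjusted p under 0.05. Overexpressing replicate 3 was the highest of its group in SNORA71A, SNORA71B and SNORA71C. SNHG17 differed by 0.04 (SE 0.11).

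Host genes as a set lay close to no change, and their difference from the small RNAs was not tested. A tested host transcript on the same strand was found for 221 members, at 134 host probe sets. Of these members 175 were lower, with a median of -0.090, while 71 hosts were lower and 62 higher, with a median of -0.005. At an unadjusted p under 0.05, 2 hosts (1.49%) were lower and 2 higher, where 2.95% and 3.67% of all tested probe sets were. The small RNA had the lower difference of the pair in 163 of 221 pairs, or 73.8%, and in 93 of 116, or 80.2%, where both had a signal above 5. Across these 116 pairs Pearson's r between the differences was 0.25 and Spearman's rho was 0.30. Pairs that share a host or an array are not independent, so no p is given.

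By class, the hosts of C/D RNAs had 38 of 60 lower and a median of -0.014, and the hosts of H/ACA RNAs had 29 of 60 lower and a median of 0.006. Their small RNAs had medians of -0.090 and -0.094. Among named hosts the largest difference was that of AAK1, a kinase gene that holds SNORA36C. It was 0.21 (SE 0.077) higher, while SNORA36C differed by 0.06 (SE 0.15).

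**Figure D5:**
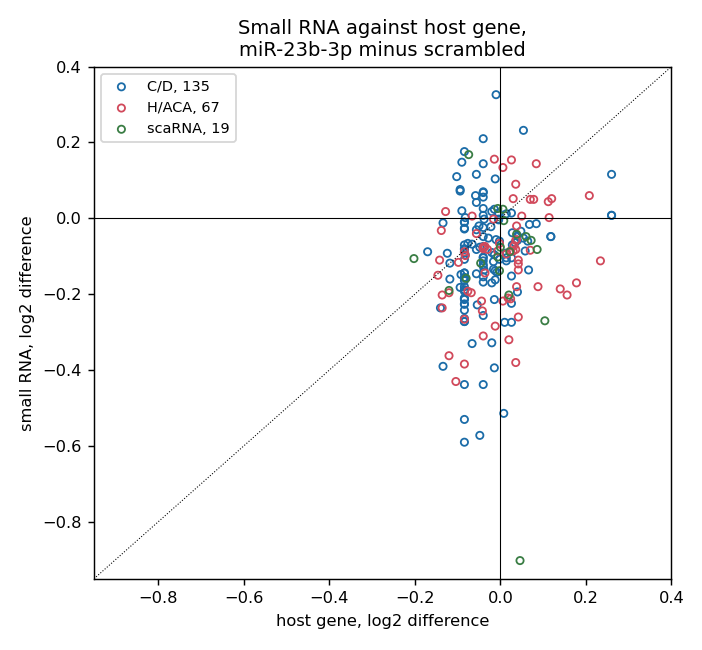
Each point pairs a member (vertical axis, log2 difference) with its host gene (horizontal axis, log2 difference), miR-23b-3p minus scrambled, for 135 C/D, 67 H/ACA and 19 scaRNA members with a host. The dotted line marks equal differences, and 163 of 221 points lie below it.

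Differences in the genes for the proteins that bind and assemble these RNAs were small, and none passed the adjusted threshold. Of the 4 core proteins of C/D particles, NOP56 read lower without overlap (difference -0.17, SE 0.059, limma adjusted p = 0.665), while NOP58, the methyltransferase FBL and SNU13 differed by -0.06, 0.004 and 0.02. All 4 core proteins of H/ACA particles were lower, with a median of -0.066. The pseudouridine synthase DKC1 had separate groups and differed by -0.12 (SE 0.060, limma adjusted p = 0.769), and NHP2, GAR1 and NOP10 differed by -0.06, -0.07 and -0.05.

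All 11 measured assembly factors, of 12 listed, were lower, with a median of -0.058, and 0 had an unadjusted p under 0.05. NOLC1, a chaperone of these particles, differed by -0.08 (SE 0.054) and NUFIP1, an assembly platform, by -0.09 (SE 0.073). Of 11 genes for Cajal bodies and small RNA maturation 5 were lower and 6 higher, with a median of 0.006. Here COIL, which encodes the Cajal body scaffold coilin, differed by 0.02 (SE 0.090). Noncoding host genes, 16 of 22 measured, had 9 lower and 7 higher. SNHG6 and SNHG1 differed by -0.16 (SE 0.072) and -0.13 (SE 0.061), both with an unadjusted p of 0.049 and a limma adjusted p of 0.750.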

How the data were processed

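Total RNA was labelled with biotin and hybridized to Affymetrix human gene arrays, 5 per group, grouped by the sample titles. The deposited values are log2 values from RMA with Expression Console, per the file headers (RMA background, quantile normalization, median polish). The fold column of the authors' deposited table is a signed score, negative where lower, per the file headers. It equalled overexpressing over control within 0.001 for 48144 of 48144 tested probe sets, which fixed the direction. A further 10 columns there hold values of single arrays under names that match no label, and were not used. Annotation is NetAffx build 36, hg19, per the file headers.

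Of 53617 probe sets, 48144 (44629 main, 3515 rescue) were fitted with limma 3.58.1 (lmFit, eBayes) in R 4.3.3 without covariates. Adjustment was Benjamini-Hochberg over all of them, with a threshold of 0.05. SE is limma's. Controls and reporters, 5473 probe sets, did not enter. No 2 arrays shared more than 2.16% of identical values. The number of arrays limits the precision.

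Members were matched by symbol, and all 300 were found in RefSeq by Entrez identifier. They have 5 to 48 probes each, and 168 are annotated as cross-hybridizing. Identical values on every array were held by 30 probe sets in 12 profiles, leaving 282 distinct ones. Intervals run from 60 to 201111 bases, with 13 over 400. A signal reads a probe set against itself, so levels of different probe sets were not compared in tests. A host is a probe set whose interval holds the member on the same strand. Clusters hold at least 4 members with gaps of at most 10000 bases.

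Named members have the smallest p in each class and direction (6 each for C/D and H/ACA, 2 for Cajal body RNAs), the highest signals, or a listed role in precursor cleavage, with their hosts and up to 4 genes per list. An item that this rule selects is not reported here. Family, cluster and hairpin members were named beside their counts. The members and lists were chosen with earlier results of these data known. The alternatives tried were Welch's test, other variance priors, a replicate block, a filter on the dimmest 25%, other centring and normalization, array weights, a poly-A spike covariate, probe set classes and leaving out each array.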

Additional observations from a re-analysis of the deposited data

Results flagged for a closer look

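In 2 of 98 groups of 5 arrays examined, a single array stood apart from the other 4 by Dixon's criterion at 0.71 of the range, while chance alone marks about 1 in 20 groups. Both were overexpressing replicate 4, the array with the lowest poly-A spikes. SNORA16B, an H/ACA RNA in PPP2R5A, read 3.64 there and 4.22 to 4.31 in the other 4 arrays. SNORD14E, a U14 copy in HSPA8, read 4.95 there and 5.43 to 5.55 in the other 4.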

How the results depend on the processing

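The count of members past the adjusted threshold was 0 under every alternative run. The Cajal body median, under the poly-A spike covariate, and 20 values of named members changed sign, and the host gene median, close to 0, ranged from -0.021 to 0.007. The lowest adjusted p of a named member was 0.0555, for SCARNA20 with a trended and robust variance prior. With the poly-A spike covariate the median was -0.015 for C/D and 0.018 for Cajal body RNAs. In that fit 13 members were lower and 6 higher at an unadjusted p under 0.05, where 2.80% and 3.79% of all tested probe sets were. Without the dimmest 25% of probe sets the C/D median was -0.092. With signals above 5 only it was -0.096, and 0 members were called higher, where 4.58% of all tested probe sets above 5 were. Restricted to probe sets not annotated as cross-hybridizing, which leaves 132 members, 15 were called lower. Leaving out 1 array at a time gave 27 to 55 members called lower (9% to 18.3%), the highest without overexpressing replicate 3. Of all tested probe sets, 2.75% to 3.08% were called lower in these fits. The same fits gave 1 to 4 members called higher, the lowest without overexpressing replicate 2. Medians in these fits ranged from -0.070 to -0.044 for C/D, -0.13 to -0.074 for H/ACA and -0.11 to -0.050 for Cajal body RNAs. With the replicate number as a block, 34 members (11.3%) were called lower, where 2.72% of all tested probe sets were, and 3 higher. The class medians were -0.060, -0.091 and -0.088. Samples of the same number did not deviate together (r from -0.10 to 0.043), so the numbers were not taken as pairs. Of 842 values for 43 named members under the alternatives, 835 stayed within 1 SD of the main value. Several alternatives change only the variance or the probe sets fitted and return the same difference, so this count is no measure of stability. The poly-A spike covariate gave 6 of the 7 values that moved. The 20 sign changes fell in 15 members. Signals near the background medians of 2.29 to 2.44 limit what could be seen in 83 members.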

Other observations

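Other small noncoding RNAs were read beside the members, in sets chosen after their values were seen. Of 52 probe sets for spliceosomal and other small nuclear RNAs, vault, Y, 7SK, RMRP and RPPH1 RNAs, 34 were lower with miR-23b-3p, with a median of -0.056, and 7 (13.5%) were lower and 0 higher at an unadjusted p under 0.05, where 2.95% and 3.67% of all tested probe sets were. With the poly-A spike covariate 28 were lower, with a median of -0.022. In that fit 4 (7.69%) were called lower and 0 higher, where 2.80% and 3.79% of all tested probe sets were. Among the 17 of the 52 with a signal above 5, 15 were lower without the covariate, with a median of -0.07. MicroRNA hairpin probe sets, 1155 in all, had 563 lower and 584 higher, with a median of 0.002. The hairpins above 5, 131 probe sets, had a median of 0.05. The difference between these sets and the members was not tested.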
